A study of Homo sapiens with 6 samples.

Results

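Septins are GTP-binding proteins that polymerise into filaments and rings beneath the plasma membrane and along actin and microtubules. The 9 genes described here, SEPTIN2, SEPTIN3, SEPTIN5 to SEPTIN11, were taken by their HGNC symbol from a table of 20345 protein-coding genes, which holds 13 septin genes in all. Their RNA was sequenced in SW1990, a human cell line from a pancreatic adenocarcinoma. One group of 3 libraries came from cells with an shRNA against LRRC8A, which every volume-regulated anion channel needs as a subunit, and the other 3 libraries came from cells with a non-targeting shRNA. Both hairpins were delivered by lentivirus in the pLKO.1 vector, and both groups were selected with puromycin as stable lines. The groups differ in hairpin and in line, so loss of LRRC8A, other effects of either hairpin and differences between lines cannot be told apart. The labels give the same batch for all 6 libraries, and the 3 of a group are called biological replicates by the series. Whether they stem from separate transductions is not stated there, so p-values measure the spread between these libraries, which may be between cultures of the same line. The family was chosen with results of this comparison already known, SEPTIN3 being among the genes known to have risen, so its fold changes and calls are given as a description and not as an independent test.

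Septins assemble in palindromic rods that join end to end. A rod takes its subunits from homology groups named after SEPTIN2, SEPTIN3, SEPTIN6 and SEPTIN7, and members of a group can replace each other at the same place in the rod. In dividing cells septin filaments scaffold the contractile ring and the midbody, and in epithelial cells they also guide stress fibres, stable microtubules and vesicle delivery.

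The knockdown and the cells were checked first. LRRC8A had 40.8, 37.8 and 41.6 CPM (counts over the library total, adjusted with TMM factors) in LRRC8A shRNA libraries, against 81.2, 73.8 and 71.7 CPM in control libraries, a log2 fold change of -0.92 (SE 0.06, edgeR adjusted p = 1.46e-08). Library totals were 37295187 to 42937612 counts in the LRRC8A shRNA group and 37052641 to 37565017 in controls. Among the epithelial markers, EPCAM had 572 to 616 TPM (a share of transcripts scaled by length) over the 6 libraries. CDH1, at 194 to 214 TPM, and the keratin gene KRT19, at 463 to 548 TPM, were also well expressed. KRT7, at 2.11 to 3.32 TPM, and MUC1, at 5.60 to 6.63 TPM, of the same list were low. The 8 epithelial markers summed to 11521 to 12725 TPM in LRRC8A shRNA and 14288 to 15152 TPM in control libraries. Most of that sum came from the keratin genes KRT18 and KRT8, which were lower by a log2 fold change of -0.38 and -0.29 (called by edgeR), and the other 6 were not called; their part in the septin values was not tested. Leukocyte markers (7 of 8 under 1 TPM in every library, CD3E and NKG7 at 0) summed to 3.25 to 4.44 TPM in LRRC8A shRNA and 3.66 to 4.16 TPM in control libraries. Fibroblast markers (7 of 8 under 1 TPM, COL1A2, DCN and THY1 at 0) summed to 1.61 to 1.71 TPM in LRRC8A shRNA and 1.35 to 2.32 TPM in control libraries, and all 4 endothelial markers stayed under 1 TPM.

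In the knockdown cells the family moved in both directions. SEPTIN2, SEPTIN3 and SEPTIN8 rose, by 28.4%, 60.5% and 18.2%, and SEPTIN9 fell by 13.4% (values of the edgeR fit). SEPTIN5, SEPTIN6, SEPTIN7, SEPTIN10 and SEPTIN11 did not pass the test. Thus 4 of the 9 septins were called at an adjusted p under 0.05 (edgeR quasi-likelihood test, two-sided, Benjamini-Hochberg over 13551 tested genes), beside 4.35% of all tested genes. By direction, 3 were higher, where 1.77% of tested genes were, and 1 was lower, where 2.58% were. An unadjusted p under 0.05 was found in 5 of the 9, beside 18.3% of tested genes. All 9 passed the filter on low counts. These are levels of a bulk sample, in which fewer cells with a transcript and less of it per cell cannot be told apart. The median log2 fold change of the 9 was 0.049, against 0.00079 over all tested genes, and the median size without sign was 0.19, against 0.087.

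**Figure D1:**
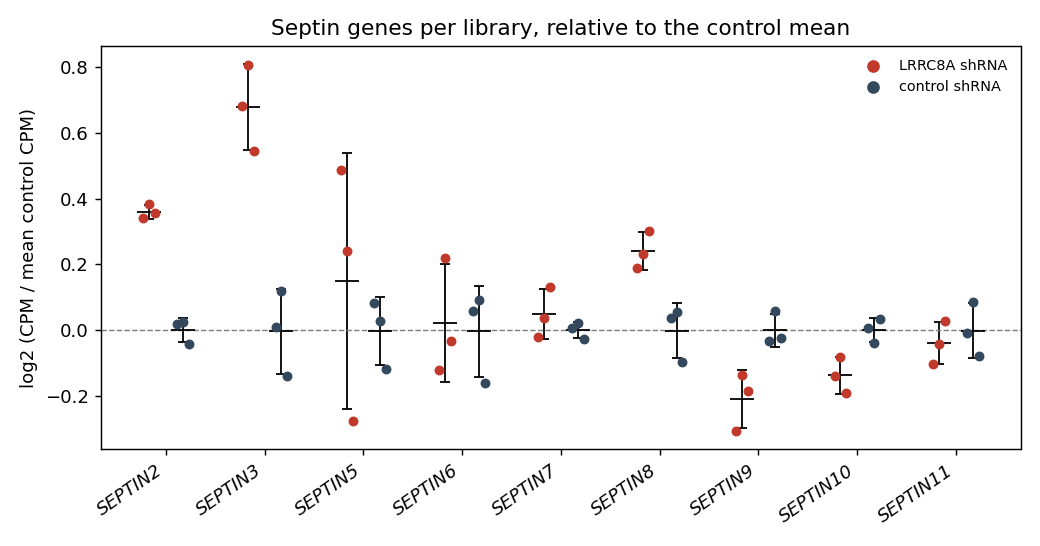
Level of each septin gene in each library, as log2 of its CPM over the mean CPM of the control libraries (y axis); red points are LRRC8A shRNA libraries, dark points control libraries, bars the mean ± SD (n = 3). For SEPTIN2, SEPTIN3 and SEPTIN8 the 3 LRRC8A shRNA points lie above the control points, for SEPTIN9 and SEPTIN10 below them, and in the other 4 genes the groups overlap.

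The annotated 3′ UTRs of the septins differ in a 7-base word, GTGTCAC, that an earlier analysis of these data found more often in genes that rose. The word was thus chosen on this comparison and its presence is a description. Of the tested genes with an annotated 3′ UTR (GENCODE 29, coding strand searched), the word was held by 32.2% of the 236 called higher, 11.05% of the 344 called lower and 10.35% of the 12497 not called. It was held by 5 of the 9 septins, among them each of the 3 that rose, with 6 sites in all. SEPTIN7 and SEPTIN11, which were not called, held it too, so the word does not set the septins that rose apart. SEPTIN9, which fell, lacked it, as did most tested genes with a 3′ UTR of similar length (12.6% held it). Each site is written 5′ to 3′ on the strand of the gene, cut from GENCODE 29 transcripts (GRCh38), with the word in capitals.
SEPTIN2 site 1, chr2:241352133-241352162, plus strand: atttcattgctGTGTCACactctgtgtttt
SEPTIN2 site 2, chr2:241353286-241353315, plus strand: ctgtagccttaGTGTCACctttcttcttgt
SEPTIN3, chr22:41995384-41995413, plus strand: tgtcgtgttcaGTGTCACaaagctaccacc
SEPTIN8, chr5:132758512-132758541, minus strand: ttccatttacaGTGTCACtattccctgacg
SEPTIN7, chr7:35906758-35906787, plus strand: tcattagctggGTGTCACattaccacctgc
SEPTIN11, chr4:77030975-77030997, plus strand: gcagGTGTCACccccctgtatcg

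SEPTIN2 alone held the word at 2 places, 207 and 1360 bases into a 3′ UTR of 2090 bases. In SEPTIN8 it began at base 291 of 2820 and in SEPTIN3 at base 639 of 3465. In SEPTIN7 it began at base 2476 of 2812, near the end of the longest 3′ UTR. In SEPTIN11 it lay at base 5 of an alternative 3′ UTR of 1184 bases and was missing from the longest one of 4102 bases. The sites are not in every annotated transcript. The SEPTIN2 sites were in 8 and 6 of 9 transcripts with a 3′ UTR, the SEPTIN8 site in 5 of 9, the SEPTIN7 site in 3 of 5, the SEPTIN3 site in 1 of 4 and the SEPTIN11 site in 1 of 6. Longer 3′ UTRs hold a given word more often. Among tested genes whose longest 3′ UTR was 0.8 to 1.25 times as long, the word was held by 13% for the length of SEPTIN2, 18.6% for SEPTIN3 and 16.2% for SEPTIN8. The share was 16.1% for SEPTIN7 and 21.6% for SEPTIN11. For septins without a site it was 5.4% (SEPTIN5), 17.5% (SEPTIN6), 12.6% (SEPTIN9) and 7.8% (SEPTIN10). SEPTIN5, SEPTIN6, SEPTIN9 and SEPTIN10 held no site. Whether the word has a part in the changes was not tested.

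**Figure D2:**
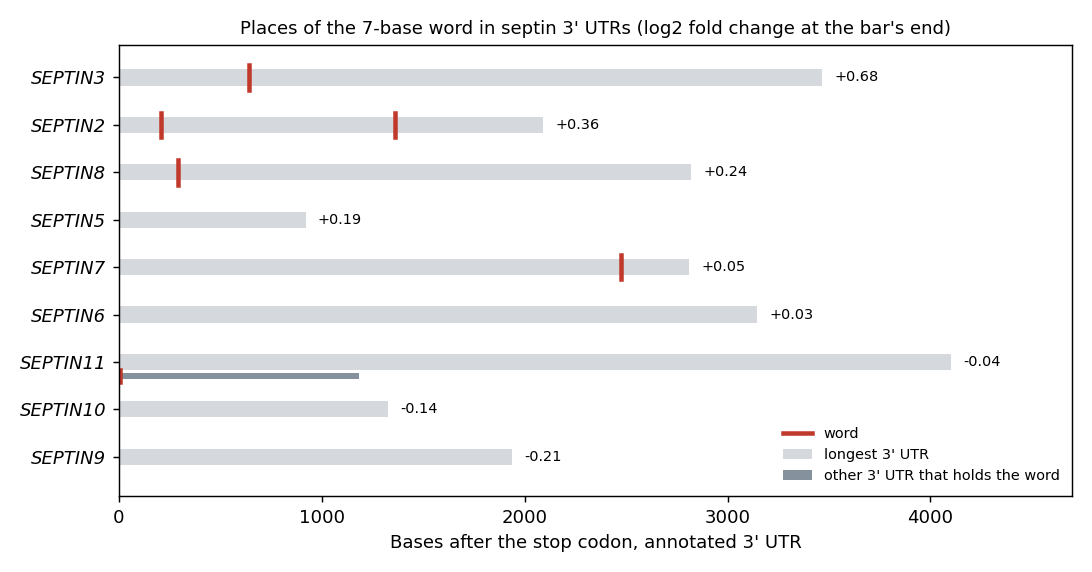
Longest annotated 3′ UTR of each septin gene (grey bars, bases after the stop codon on the x axis) with the places of the word GTGTCAC (red ticks) and the log2 fold change, LRRC8A shRNA over control shRNA, at the end of the bar; genes are ordered by that fold change. The 3 genes at the top, SEPTIN3, SEPTIN2 and SEPTIN8, hold 1, 2 and 1 sites, and the darker bar under SEPTIN11 is the alternative 3′ UTR that carries its site.

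SEPTIN2 leads the group that also holds SEPTIN5, and is among the subunits that tie septin rods to actin stress fibres and to the cleavage furrow. It (ENSG00000168385; GRCh38, chromosome 2, 241315100 to 241354027, plus strand) had 489, 504 and 495 CPM in LRRC8A shRNA libraries, against 391.7, 393 and 375 CPM in control libraries. The groups were far apart relative to the spread within either, with SDs of 7.48 and 9.94 CPM. The log2 fold change was 0.36 (SE 0.04, edgeR adjusted p = 2.39e-05), which is 1.28-fold with a 95% confidence interval of 1.21 to 1.36, and SEPTIN2 ranked 14 of all 13551 tested genes by p. It was called in each of the 13 alternative fits, the 6 that left out 1 library included. HDLBP, on the opposite strand with 1962 bases in common, stood at 831 ± 28.4 CPM in LRRC8A shRNA and 799 ± 7.81 CPM in control libraries (SD, n = 3 each), and was not called (edgeR adjusted p = 0.515). An antisense gene without values here shares 1765 bases with SEPTIN2. Reads from the shared bases cannot be told apart without the strand setting of the counting.

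SEPTIN5, the second of that group, is best known from neurons and platelets, where it acts in vesicle release. It had 198, 143 and 100 counts in LRRC8A shRNA libraries, against 127, 122 and 111 counts in control libraries. In CPM these were 4.54, 3.83 and 2.67 in LRRC8A shRNA libraries, against 3.43, 3.30 and 2.98 in control libraries, so the knockdown libraries spread to either side of the controls. The fold was 1.14 with an interval of 0.861 to 1.505 (edgeR adjusted p = 0.666), which holds both a fall and a rise. The SDs were 0.942 CPM in LRRC8A shRNA and 0.228 CPM in control libraries. SEPTIN5 (chromosome 22, 19714464 to 19724224) runs into GP1BB on the same strand and has an annotated read-through transcript with it, so its few counts are uncertain. Its FPKM per CPM, a quantity that moves with the transcript length assigned to the gene, differed 1.63-fold between the highest and the lowest library, LRRC8A shRNA replicate 1 and control replicate 3.

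The SEPTIN6 group supplies the subunit that pairs with SEPTIN7 in a rod, and of its 4 members here SEPTIN8 rose and the other 3 did not pass the test. SEPTIN8 (ENSG00000164402; chromosome 5, 132750817 to 132807241, minus strand) had 57.5, 59.2 and 62.2 CPM in LRRC8A shRNA libraries, against 51.8, 52.4 and 47.2 CPM in control libraries. The groups did not overlap, and the log2 fold change was 0.24 (SE 0.06, edgeR adjusted p = 0.0174). The call was lost without LRRC8A shRNA replicate 3 (edgeR adjusted p = 0.0804), control replicate 1 (0.0551) or control replicate 3 (0.0961). CCNI2 shares 3587 bases with SEPTIN8 on the other strand and was at 0.785 ± 0.307 CPM in LRRC8A shRNA and 0.890 ± 0.289 CPM in control libraries (SD, n = 3 each).

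SEPTIN10 (ENSG00000186522; chromosome 2, 109542982 to 109614206, minus strand), the gene of the SEPTIN6 group with the highest TPM, had 195, 203 and 188 CPM in LRRC8A shRNA libraries, against 216, 210 and 221 CPM in control libraries. Every knockdown value was under every control value, but the log2 fold change of -0.14 (SE 0.04) missed the threshold at an edgeR adjusted p = 0.0802. It passed without LRRC8A shRNA replicate 2 (edgeR adjusted p = 0.0432) and with DESeq2 (adjusted p = 0.0429). Over all tested genes the groups were apart in 23.6%, and among the septins in 5 of 9.

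SEPTIN11 and SEPTIN6, which are often found in the same filaments, overlapped between groups. SEPTIN11 (ENSG00000138758; chromosome 4, 76949703 to 77040384, plus strand) had 160, 167 and 175 CPM in LRRC8A shRNA libraries, against 171, 182 and 163 CPM in control libraries. Its fold was 0.974 with an interval of 0.907 to 1.05. SEPTIN6 (chromosome X, 119615724 to 119693370, minus strand) had 23.1, 29.3 and 24.6 CPM in LRRC8A shRNA libraries, against 26.2, 26.8 and 22.5 CPM in control libraries. The fold of SEPTIN6 was 1.02 with an interval of 0.890 to 1.17, wider than that of SEPTIN11.

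SEPTIN7 forms a group of its own and is held to be present in every septin rod. SEPTIN7 (chromosome 7, 35800932 to 35907105, plus strand) had 127, 132 and 141 CPM in LRRC8A shRNA libraries, against 130, 131 and 127 CPM in control libraries, a fold of 1.03 with an interval of 0.967 to 1.11 (edgeR adjusted p = 0.640). The groups overlapped in counts. In the deposited TPM values the same gene stood at 60.9, 93.4 and 78.6 in LRRC8A shRNA libraries, against 62.3, 65.0 and 57.4 in control libraries. SEPTIN7 counts and per-length values thus did not move together: its FPKM per CPM, set against the library median, was 0.679, 1.01 and 0.803 in LRRC8A shRNA libraries and 0.698, 0.715 and 0.658 in controls. The highest of these was 1.53 times the lowest, a wider range than in 99.0% of 10866 genes with at least 1 FPKM in every library. GENCODE 29 names 9 pseudogenes of SEPTIN7, more than of any other of the 9 septins, and how reads shared with them were counted is not given in the sources used here. Their part in this mismatch was not tested.

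SEPTIN9 and SEPTIN3 belong to the group that extends a rod in its middle, SEPTIN9 being the widespread form, which also bundles microtubules and actin, and SEPTIN3 a form known mainly from brain. SEPTIN9 (ENSG00000184640; chromosome 17, 77280569 to 77500596, plus strand) had 302, 340 and 329 CPM in LRRC8A shRNA libraries, against 365, 389 and 367 CPM in control libraries. The groups were apart, with a log2 fold change of -0.21 (SE 0.05) and an adjusted p = 0.0140 by edgeR. The call was lost without LRRC8A shRNA replicate 1 (edgeR adjusted p = 0.0829), which had the lowest value, or without control replicate 2 (0.0896), which had the highest. Other annotated genes overlap SEPTIN9 on either strand, the longest stretch being 3609 bases on the opposite strand. None of them has values here.

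SEPTIN3 (ENSG00000100167; chromosome 22, 41969475 to 41998221, plus strand) was a low gene in these cells, with 332, 310 and 259 counts in LRRC8A shRNA libraries and 177, 190 and 160 counts in control libraries. In CPM it had 7.61, 8.29 and 6.92 in LRRC8A shRNA libraries, against 4.77, 5.14 and 4.30 in control libraries. The lowest knockdown library was well above the highest control, and the log2 fold change was 0.68 (SE 0.13, edgeR adjusted p = 0.00479), or 1.60-fold with an interval of 1.33 to 1.94. SEPTIN3 was called whichever library was left out, and was not called by limma on FPKM values (adjusted p = 0.0961 at a pseudocount of 1). An antisense gene without values here shares 914 bases with SEPTIN3. Reads of the pair cannot be told apart without the strand setting of the counting. Beside SEPTIN3, 7 of 9 neuron markers stayed under 1 TPM in every library, with STMN2, ELAVL4 and NEFM at 0 throughout. The list summed to 17.1 to 20.7 TPM in LRRC8A shRNA and 16.7 to 18.6 TPM in control libraries, nearly all of it MAP2.

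**Figure D3:**
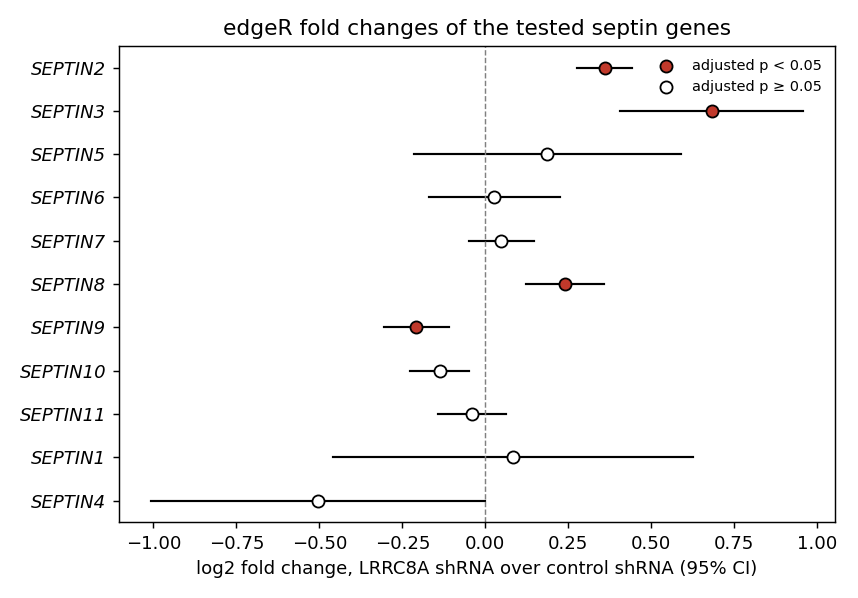
Log2 fold change of each tested septin gene, LRRC8A shRNA over control shRNA, from the edgeR fit of all genes (x axis), with its 95% confidence interval; filled points have an adjusted p under 0.05. SEPTIN2, SEPTIN3 and SEPTIN8 lie to the right of 0 and SEPTIN9 to the left, and the low genes SEPTIN5, SEPTIN1 and SEPTIN4 have the widest intervals.

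Of the 4 septin genes outside the 9, SEPTIN4 and SEPTIN1 passed the filter on low counts and neither was called. SEPTIN4, whose ARTS isoform promotes apoptosis, had 67, 48 and 61 counts in LRRC8A shRNA libraries, against 65, 94 and 75 counts in control libraries. In CPM its groups were apart, at 1.48 ± 0.179 in LRRC8A shRNA and 2.10 ± 0.403 in control libraries (SD, n = 3 each), and the log2 fold change of -0.50 (SE 0.24) had an edgeR adjusted p = 0.273. SEPTIN1, a gene of lymphoid cells, had a log2 fold change of 0.08 (SE 0.26). SEPTIN12, a testis gene, had 0, 6 and 3 counts in LRRC8A shRNA and 0, 2 and 1 counts in control libraries, and SEPTIN14, also of testis, had 2 counts in control replicate 1 and 0 in the other libraries.

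Per unit of length, the septin RNA of these cells was made up mainly of SEPTIN2, SEPTIN9 and SEPTIN10. SEPTIN2 was the highest at 292 ± 9.52 TPM in LRRC8A shRNA and 227 ± 1.52 TPM in control libraries, as mean ± SD of 3 libraries each. SEPTIN9 came next at 174 ± 13.5 TPM in LRRC8A shRNA and 200 ± 11.2 TPM in control libraries, then SEPTIN10 at 135 ± 6.63 TPM in LRRC8A shRNA and 145 ± 0.493 TPM in control libraries. These 3 did not overlap each other within either group. SEPTIN7 and SEPTIN11 followed at 77.6 ± 16.2 and 61.4 ± 0.955 TPM in LRRC8A shRNA libraries and at 61.6 ± 3.85 and 63.8 ± 4.80 TPM in control libraries, and their order was not resolved in either group. SEPTIN8 stood at 28.9 ± 0.536 TPM in LRRC8A shRNA and 24.6 ± 0.577 TPM in control libraries, and SEPTIN6 at 11.9 ± 1.503 TPM in LRRC8A shRNA and 10.9 ± 1.18 TPM in control libraries, each apart from its neighbours. At the low end SEPTIN3 had 3.36 ± 0.531 TPM in LRRC8A shRNA and 2.04 ± 0.311 TPM in control libraries, and overlapped SEPTIN5 in either group. SEPTIN5 had 3.08 ± 1.34 TPM in LRRC8A shRNA and 2.37 ± 0.660 TPM in control libraries. The order by FPKM was the same for all 9 genes.

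**Figure D4:**
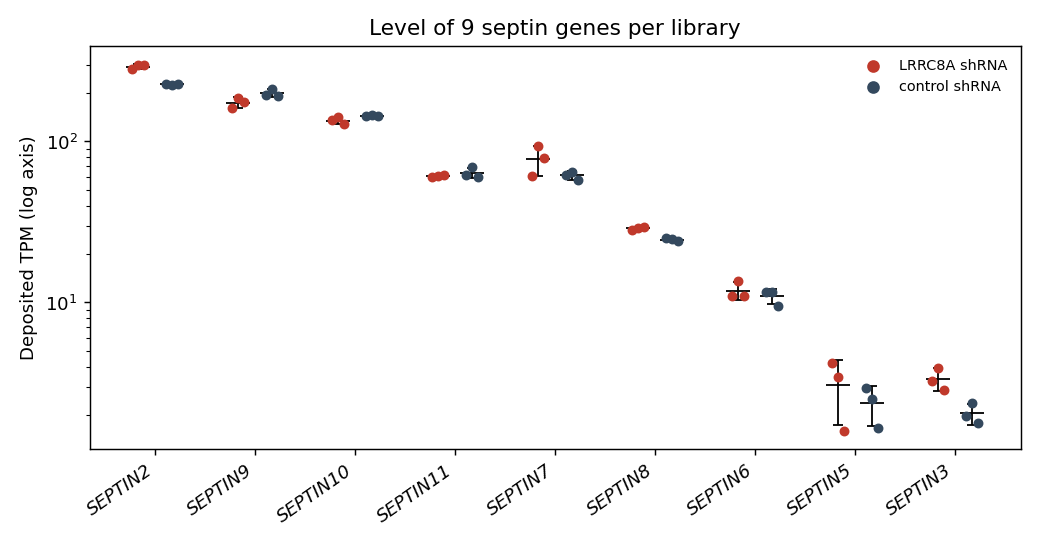
Deposited TPM of each septin gene in each library (y axis, log scale), ordered by the control mean; red points are LRRC8A shRNA libraries, dark points control libraries, bars the mean ± SD (n = 3). The genes range from SEPTIN2, at 281 to 298 TPM in LRRC8A shRNA and 226 to 229 TPM in control libraries, down to SEPTIN3 and SEPTIN5 at a few TPM, and SEPTIN5 and SEPTIN7 scatter most among the LRRC8A shRNA libraries.

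With SEPTIN2 up and SEPTIN9 down, the make-up of the septin pool differed between groups, as values derived from the same comparison. The 13 septins summed to 748, 835 and 789 TPM in LRRC8A shRNA libraries and to 736, 762 and 722 TPM in control libraries, and these sums overlapped. The SEPTIN2 group supplied 37.8% ± 1.12 of that sum in LRRC8A shRNA and 31.5% ± 0.977 in control libraries, and the SEPTIN3 group 22.5% ± 0.542 in LRRC8A shRNA and 27.2% ± 0.828 in control libraries (SD, n = 3 each). The SEPTIN6 group supplied 30.0% ± 1.25 in LRRC8A shRNA and 32.96% ± 0.0636 in control libraries, and SEPTIN7 9.76% ± 1.53 in LRRC8A shRNA and 8.32% ± 0.314 in control libraries. In summed TPM the SEPTIN6 group overlapped, at 235, 245 and 230 in LRRC8A shRNA libraries and 242, 251 and 238 in control libraries. The sums of the SEPTIN2 group and of the SEPTIN3 group did not. The SEPTIN7 shares overlapped, at 8.14%, 11.2% and 9.96% in LRRC8A shRNA libraries and 8.47%, 8.53% and 7.96% in control libraries. As given above, SEPTIN7 counts and TPM did not move together, and its TPM is part of the sum under every share. The ratio of SEPTIN2 to SEPTIN9 in TPM was 1.75, 1.59 and 1.70 in LRRC8A shRNA libraries, against 1.18, 1.06 and 1.18 in control libraries. Within the SEPTIN3 group, SEPTIN3 supplied 1.89% ± 0.236 of the TPM in LRRC8A shRNA and 1.01% ± 0.0956 in control libraries, so SEPTIN9 made up nearly all of that group in either condition. These are shares of RNA, and septin protein was not measured.

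Genes of proteins that work with septins were read from 5 lists. Of their 75 genes, 4 rose, beside 1.77% of all tested genes, and 1 fell, beside 2.58%. These counts are small, and nothing particular to the lists is read from them. In the list of 32 genes for cytokinesis and the contractile ring, 3 rose and 29 did not pass, and 9 had an unadjusted p under 0.05, where 18.3% of all tested genes did. ANLN, whose product anillin brings septins to the cleavage furrow, rose and was at 152 ± 7.73 CPM in LRRC8A shRNA and 132 ± 3.27 CPM in control libraries (SD, n = 3 each; adjusted p = 0.0172 by edgeR, log2 fold change 0.20). PRC1, which bundles the microtubules of the spindle midzone, rose with a log2 fold change of 0.19 (SE 0.05, edgeR adjusted p = 0.0189), and DIAPH3, a formin that nucleates actin, with one of 0.21 (SE 0.06, edgeR adjusted p = 0.0384). The median log2 fold change of this list was 0.035, against 0.00079 over all tested genes. Among 16 genes listed for septin-binding proteins, CBL, a ubiquitin ligase for receptor tyrosine kinases, rose (log2 fold change 0.20, adjusted p = 0.0128 by edgeR) and 15 did not pass. Of the 16, 2 had an unadjusted p under 0.05, and the median log2 fold change was 0.054. Whether CBL protein binds septins directly was not examined here.

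Of 12 actin and tubulin genes TUBB3, a beta-tubulin, fell to 107 ± 2.62 CPM in LRRC8A shRNA libraries, against 121 ± 3.12 CPM in control libraries (SD, n = 3 each; adjusted p = 0.0219 by edgeR, log2 fold change -0.18). The other 11 did not pass, 6 of the 12 had an unadjusted p under 0.05 (18.3% of all tested genes), and DESeq2 called 2. All 12 log2 fold changes were below 0 and their median was -0.11. None of the 6 genes for CDC42 and the BORG proteins, which bind septin filaments, was called by edgeR or by DESeq2, and 1 had an unadjusted p under 0.05, near the 18.3% of all tested genes. CDC42EP4, with the smallest adjusted p of that list, had a log2 fold change of 0.16 (SE 0.06, edgeR adjusted p = 0.153). None of the 9 exocyst genes was called by either tool, and 2 had an unadjusted p under 0.05, also near that share. EXOC7, which tethers exocyst vesicles to the membrane, had a log2 fold change of 0.13 (SE 0.04, edgeR adjusted p = 0.0969). With single libraries left out, ANLN and PRC1 were each called in 2 of 6 fits, DIAPH3 in 1, CBL in 4 and TUBB3 in 2.

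**Figure D5:**
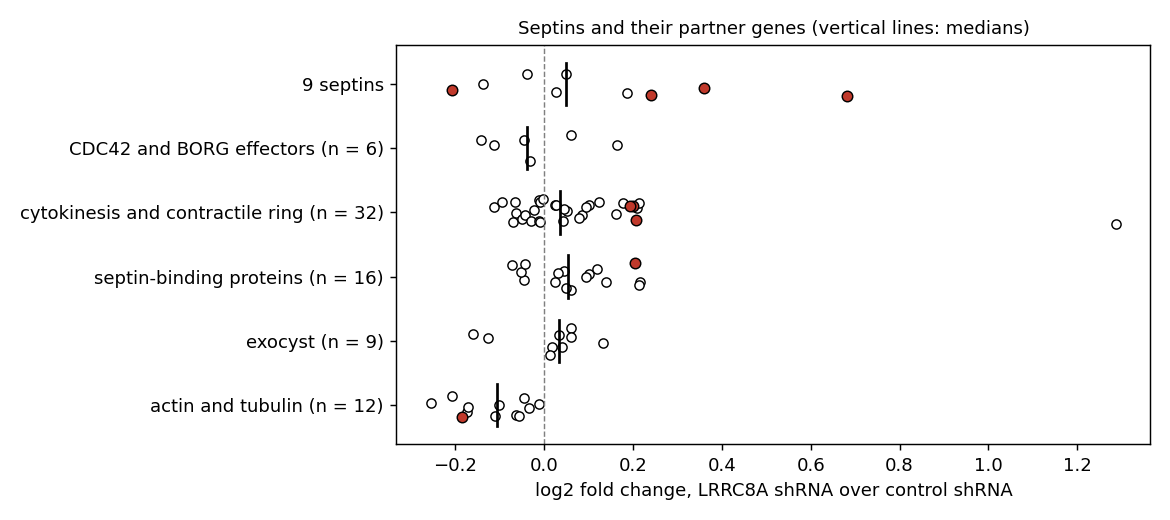
Log2 fold change, LRRC8A shRNA over control shRNA (x axis), of the 9 septins and of 75 genes in 5 lists of septin partners; filled points have an edgeR adjusted p under 0.05 and vertical lines are medians. The septins span -0.21 to 0.68, and the open point at 1.29 is the myosin light chain gene MYL9, which is under 1 CPM in every library.

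The genes whose course over the 6 libraries was most like that of SEPTIN3 were taken by the root mean square difference of log2 CPM, each centred on its own mean, among 10554 other tested genes with a mean of at least 200 counts. They were PRSS35, a protease-like gene, with a difference of 0.068, UAP1L1, a relative of the enzyme UAP1, with 0.11, and the homeobox gene EVX1 with 0.12. PRSS35 had 23.5, 23.2 and 19.8 CPM in LRRC8A shRNA libraries, against 13.8, 14.3 and 11.4 CPM in control libraries. None of these 3 genes holds GTGTCAC in an annotated 3′ UTR. Of the other septins, SEPTIN2 came nearest, at rank 35 with a difference of 0.18, then SEPTIN8 at rank 197 with 0.24, and SEPTIN9 was among the least alike at rank 9744. The groups dominate such a likeness over 6 libraries, and it is given as a description.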

How the data were processed

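The submitters' processing notes name HISAT2 2.2.1, StringTie 2.2.3 and fastp 0.23.2, and list GRCh38 and mm10 with no role. Which program counted reads, and whether by strand, is not given in the sources used here. The deposited table holds raw counts, and FPKM and TPM values that the authors normalized for gene length and depth. Counts were filtered with filterByExpr, scaled by TMM and tested with edgeR 4.0.16 (quasi-likelihood, robust; R 4.3.3). The test was two-sided, and p-values of 13551 genes were adjusted after Benjamini and Hochberg and called under 0.05, without a term for replicate number. The fit was tested on simulated data. SEs are the log2 fold change divided by the square root of F. The TPM and FPKM values were used for levels between genes. Gene positions, 3′ UTRs and site sequences are from GENCODE 29 (GRCh38), since the coordinates deposited in the table equal GENCODE 29 in 100 of 19511 genes.

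The septins, the partner lists and the word were chosen with earlier results of these data known. The text names LRRC8A, the septins and the 3 genes most like SEPTIN3. From each partner list it names up to 3 called genes, or the 1 with the smallest adjusted p. Genes that overlap a septin are named where the deposited table holds them. MYL9 and the marker genes were named after their values were seen. Single values of 3 against 3 libraries cannot reach an exact permutation p below 0.1. The alternatives tried were leaving out each library, a replicate block, DESeq2 size factors, DESeq2 1.42.0, no count filter, and limma 3.58.1 on log2(FPKM + 1), keeping genes that reach 1 FPKM in 3 libraries or more, also with a pseudocount of 0.1 or no filter.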

Additional observations from a re-analysis of the deposited data

How the results depend on the processing

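Called septins numbered 4 in edgeR and also with DESeq2 size factors, without a count filter and with a replicate block. Limma on log2(FPKM + 1), on log2(FPKM + 0.1) and without a filter called 1 septin each, SEPTIN2, so 1 higher and 0 lower. There 5, 5 and 5 septins had an unadjusted p under 0.05. These were 4 higher and 1 lower in the fits with a filter, against 3 and 2 without a filter and in edgeR. SEPTIN7 had a log2 fold change of 0.31 (SE 0.12) on log2(FPKM + 1), against 0.049 in edgeR. Shares of all genes at an unadjusted p under 0.05 were computed for the main fit only. DESeq2 called 5, of which 2 were lower (SEPTIN9 and SEPTIN10). Without 1 library each, 3 to 5 septins were called, 2 to 3 higher and 0 to 2 lower; the 0 came without LRRC8A shRNA replicate 1 or control replicate 2, where 2 lower septins had an unadjusted edgeR p under 0.05. Called genes in the whole table numbered 590, against 246 to 504 without 1 library and 157, 154 and 18 by the 3 limma fits. DESeq2 called 660 genes, and edgeR called 692 without a count filter and 589 with DESeq2 size factors. Called partner genes numbered 5, against 0 to 5 without 1 library (0 without control replicate 1 or 2, where 15 and 20 had an unadjusted edgeR p under 0.05), 6 by DESeq2 and 0 in each limma fit (15 each at an unadjusted p under 0.05). The cause was not tested. Over the fits without 1 library, 3 log2 fold changes that were not called changed sign: SEPTIN6 (-0.078 to 0.10), SEPTIN11 (-0.073 to 0.0034) and SEPTIN1 (-0.20 to 0.23). No called septin changed sign in any of the 13 alternatives. Whether same-numbered libraries share a culture or day is not stated. Their deviations from the group means correlated at 0.028, -0.089 and 0.0051 across genes. The replicate block gave 671 called genes, against 590 without it. Among the tested septins low counts limit SEPTIN1, SEPTIN4 and SEPTIN5 most.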
